A study of Homo sapiens with 18 samples.

Results

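The DNA damage checkpoint stops the cell cycle when DNA is broken or replication stalls. Among 36204 gene names on the arrays, 10 genes of its core were taken by name: the sensor kinases ATM and ATR, the effector kinases CHEK1 and CHEK2, the mitotic inhibitor kinase WEE1, the clamp loader RAD17, the clamp subunits RAD9A, HUS1 and RAD1, and the adaptor CLSPN. All spots carrying one of these names that were not control spots were used, which gave 19 probes. The total RNA of 2 human colorectal cancer cell lines had been hybridised to 18 one-colour Agilent arrays. HT29 is a colorectal adenocarcinoma line that responds to oxaliplatin (OXA), a platinum drug that crosslinks DNA, and HTOXAR3 is its resistant subline, which arose under continuous exposure to rising OXA doses. Each line was left untreated, given OXA, or given OXA plus Curcumin, a plant polyphenol, for 24 h, and each of the 6 groups held 3 biological replicates. The OXA dose was 10 µM in HT29 and 30 µM in HTOXAR3, the Curcumin dose was 10 µM in both, and Curcumin alone is not analysed here. HTOXAR3 is a single resistant subline, and since its OXA dose also differed, line and dose cannot be told apart in any comparison of the treated lines.

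ATM is recruited to double-strand breaks, whereas ATR, held by its partner ATRIP, acts on single-stranded DNA at stalled forks. RAD17 loads the ring formed by RAD9A, HUS1 and RAD1 at the edge of such stretches, the ring brings in the ATR activator TOPBP1, and CLSPN presents CHEK1 to ATR. ATM acts chiefly on CHEK2. Activated CHEK1 and CHEK2 remove CDC25 phosphatases, and WEE1 places the inhibitory phosphate on the mitotic kinase CDK1 that CDC25 would take off. Much of this control works through phosphorylation and protein decay, which transcript levels do not show.

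Expression is given as the log2 of background-corrected, quantile-normalized intensity. A gene is represented by the probe that was brightest on average across the 18 arrays, and levels are compared only within a probe. A difference was called when limma's moderated test over all gene names gave a Benjamini-Yekutieli adjusted p under 0.05 and a fold over 1.2. The chosen probes of all 10 genes were well above background on all 18 arrays, with 1 further ATM probe reaching that mark on 17. Of 13 markers of colonic epithelium, 9 were well above background on all 18 arrays and none failed on all, and their summed level lay between 19.50 and 19.76 over the 6 groups. The same flag was set on all arrays for 4 of 5 leukocyte markers, 2 of 4 endothelial markers and none of 4 fibroblast markers, of which COL3A1 was flagged on none. PTPRC, the defining leukocyte surface phosphatase, and the epithelial adhesion molecule EPCAM were both flagged on all 18. The leukocyte markers' summed level lay between 10.55 and 11.67. Their part in the results was not tested.

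Sequences are shown first where the reading of a gene depends on which probe is read. The pair of ATM probes below gave opposite signs after OXA in HT29. They lie 136 kb apart in the gene, the first at chr11:108099942-108100001 and the second at chr11:108236085-108236144 (GRCh37, plus strand, as the array files give them).
ATM A_33_P3589722: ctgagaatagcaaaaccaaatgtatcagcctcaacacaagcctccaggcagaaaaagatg
ATM A_23_P35916: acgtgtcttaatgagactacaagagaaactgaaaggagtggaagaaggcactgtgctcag

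The RAD1 probes also disagreed in HT29. They start 5907 bases apart on the minus strand, at chr5:34908893-34908952 and chr5:34914800-34914859 (GRCh37).
RAD1 A_23_P144697: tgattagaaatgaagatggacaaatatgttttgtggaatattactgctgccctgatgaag
RAD1 A_33_P3272828: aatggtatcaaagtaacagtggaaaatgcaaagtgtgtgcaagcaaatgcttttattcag

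CHEK2 has 6 probes, and its last exons have near-identical copies elsewhere in the genome, so which copy a probe there reads is uncertain. The brightest probe, used for the gene, lies downstream of the pair below, at chr22:29083822-29083881. All probes but the 1 farthest upstream lie within 1.43 kb of A_21_P0011391, and some overlap, so they are not independent readings. The overlapping probes below differ over 49 aligned bases by G50C, shown in capitals, with positions counted from 1 at the 5′ end of A_21_P0011391. Both match pieces that span 4876 bases of the minus strand (chr22:29085156-29090031 and chr22:29085145-29090020, GRCh37), which is more than their own 60 bases, so each crosses at least 1 intron.
CHEK2 A_21_P0011391: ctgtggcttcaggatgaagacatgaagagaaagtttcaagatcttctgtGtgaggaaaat
CHEK2 A_23_P109452: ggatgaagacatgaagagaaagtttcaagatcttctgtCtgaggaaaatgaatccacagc

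The untreated lines were compared to ask how the resistant cells differed before any drug. CHEK2, RAD1, ATM and WEE1 were lower in HTOXAR3 than in HT29 and no checkpoint gene was higher. These 4 of 10 genes stand beside 5.28% of all gene names called lower and 6.28% called higher. With dim probes left out, keeping names well above background on every array of some group, 4884 of 21868 were called in either direction. The median difference over the 10 genes was -0.18, against -0.03 over all names. OXA moved the set in both directions. In HT29, RAD9A, RAD1 and CLSPN rose and WEE1, ATR and ATM fell, against a background of 8.34% called higher and 7.62% lower. In HTOXAR3, RAD1 rose and WEE1 and ATR fell, against 5.33% and 4.95%. With dim probes left out, 6534 of 21868 names were called in HT29 and 4640 of 21867 in HTOXAR3, in either direction.

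Adding Curcumin to OXA called fewer of these genes. CLSPN fell in HT29, where no member rose, against 2.38% of all names lower and 3.14% higher. CHEK1 fell and RAD9A rose in HTOXAR3, against 4.41% lower and 4.43% higher. The combination set against untreated cells shares its arrays with the other comparisons and is no separate evidence. In it RAD9A rose and WEE1, ATR and ATM fell in HT29 (background 9.57% higher, 9.01% lower), and in HTOXAR3 RAD9A and RAD1 rose and WEE1, ATR and CHEK2 fell (8.83% and 8.66%). In a set of 10 genes a single call is already 10%, so these shares are coarse. The background shares also count dim names, whereas all 10 members were well above background. With dim probes left out, adding Curcumin called 2691 of 21867 names in HT29 and 4030 of 21867 in HTOXAR3, in either direction. The combination called 7510 of 21867 and 7031 of 21868. Shares among brighter names are thus larger, and no excess of members is drawn from the counts. The calls also rest on the spread shared by all 18 arrays. Models of only the groups compared, with fewer arrays, called 0 members in the basal, OXA and Curcumin comparisons, and kept RAD9A after the combination in HT29 and ATR, RAD9A and WEE1 after it in HTOXAR3.

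**Figure D1:**
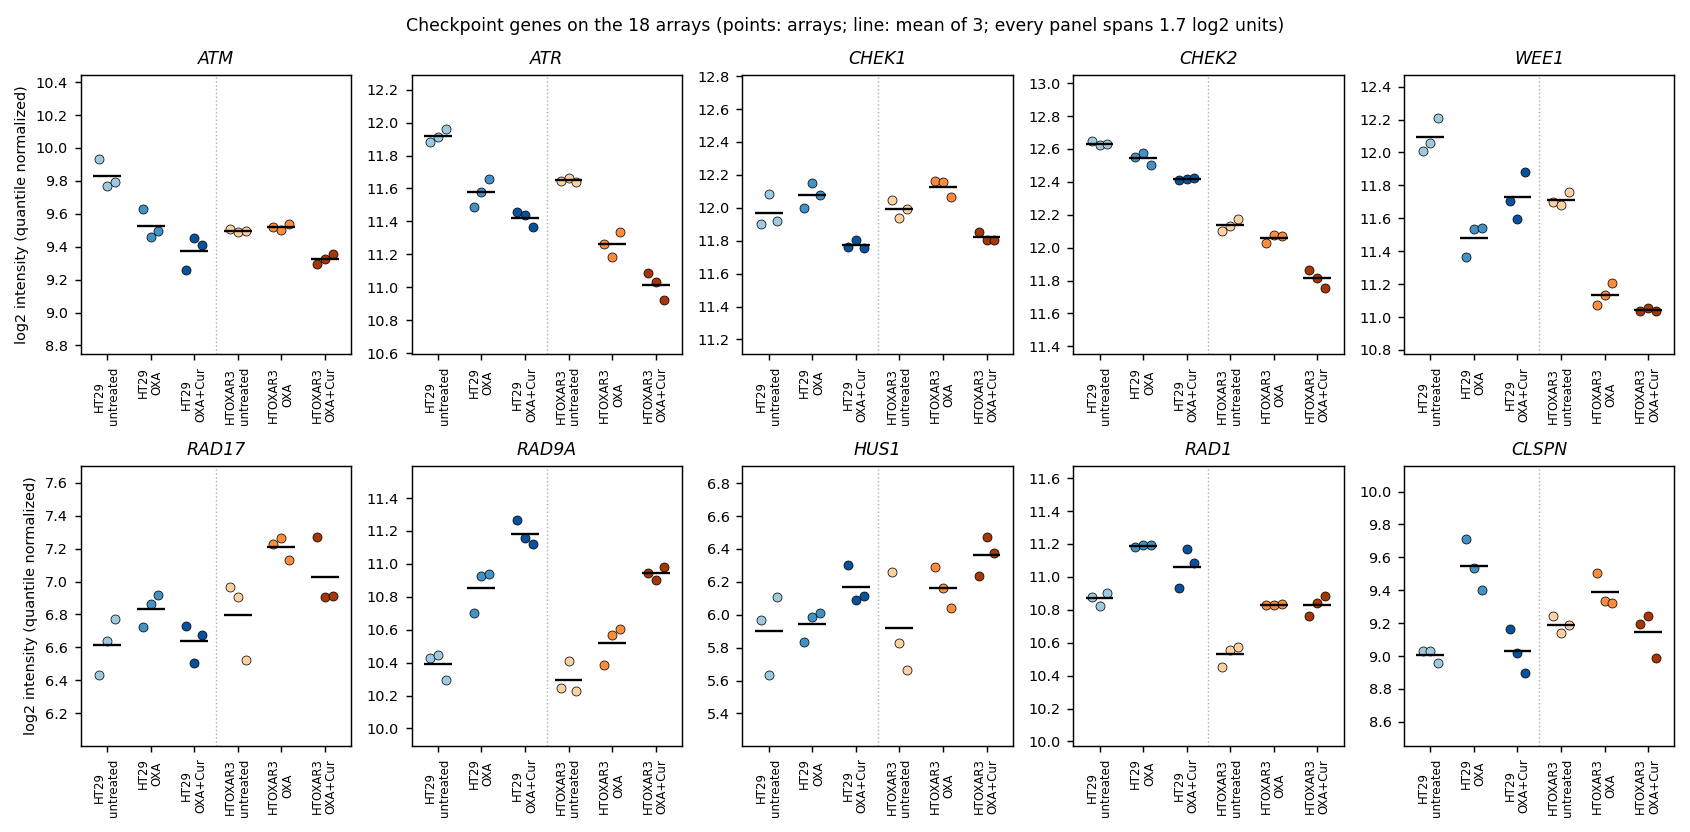
Log2 intensity of the 10 checkpoint genes on each array, by cell line and treatment, with the mean of 3 arrays as a line; every panel spans the same range. CHEK2 stepped from a mean of 12.63 in untreated HT29 to 11.81 in HTOXAR3 given OXA plus Curcumin, and RAD9A was highest in the OXA plus Curcumin groups.

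**Figure D2:**
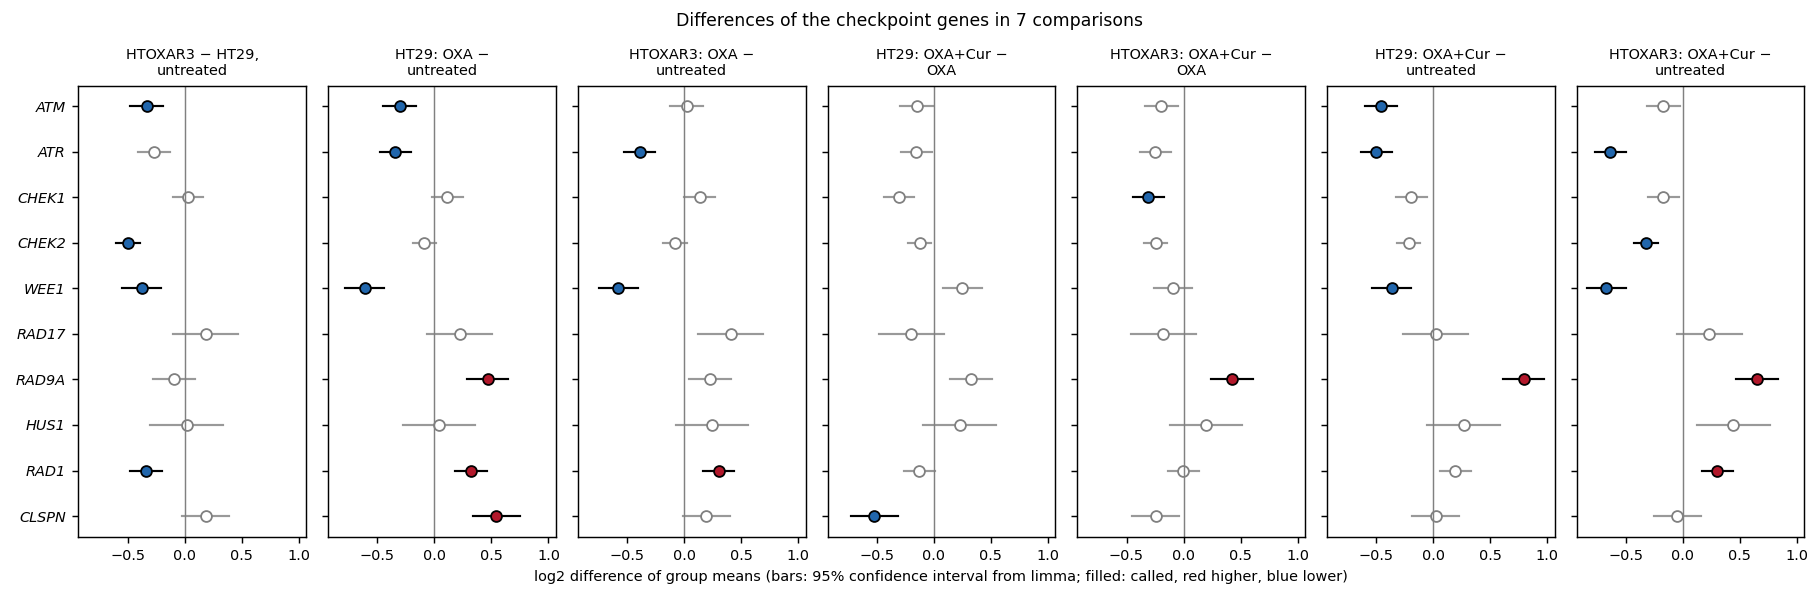
Log2 difference and 95% confidence interval (limma) of each checkpoint gene in 7 comparisons; filled points were called, red higher and blue lower. WEE1 and ATR were lower after OXA in both lines, and RAD9A was higher after the combination in both.

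ATM read differently on its 3 probes. On the brighter probe, near the 5′ end of the gene, untreated HT29 arrays read 9.77, 9.79 and 9.93 and untreated HTOXAR3 arrays 9.49, 9.49 and 9.51. The groups did not overlap, and ATM was 1.26-fold lower in HTOXAR3 (log2 difference -0.33, SE 0.07, limma adjusted p = 0.0219). HT29 given OXA read 9.46, 9.49 and 9.63, a fall of 0.30 (SE 0.07, limma adjusted p = 0.0326), and HT29 given the combination read 9.26, 9.41 and 9.45, a fall of 0.46 from untreated (SE 0.07, adjusted p = 0.00101). HTOXAR3 stayed between 9.50 and 9.54 under OXA, with a difference of 0.02 and an interval from -0.12 to 0.16, and read 9.29, 9.33 and 9.35 under the combination, where the difference of -0.17 was not called. The highest ATM level was thus that of untreated HT29, and the remaining 5 group means lay between 9.32 and 9.53.

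The ATM probe 136 kb downstream gave another picture. It read 6.98, 7.05 and 7.15 in untreated HT29 and 7.27, 7.52 and 7.57 in HT29 given OXA, so the groups did not overlap and the difference was 0.39 upward (SE 0.10, limma adjusted p = 0.0911 over all probes). Against untreated HT29 the combination differed by 0.17 on it, and the untreated lines by -0.06. The third ATM probe differed by -0.13 after OXA in HT29 and was lower in untreated HTOXAR3 by 0.58 (SE 0.12, limma adjusted p = 0.0352). On untreated HTOXAR3 replicate 2 this probe, at 5.09, was not well above background. The call of lower ATM in HT29 after OXA therefore rests on 1 of 3 probes. On the mean of all its probes ATM was called neither after OXA (-0.01) nor after the combination (-0.12) in HT29. It was also lost when any 1 array of 5 of the 6 was left out, and held only without replicate 1 of HT29 given OXA (-0.25 to -0.36 over the 6). With a replicate block it missed the threshold (-0.30, adjusted p = 0.0627). The basal call held only without HT29 untreated replicate 2 (-0.28 to -0.37 over the 6).

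ATR read lower after OXA in both lines and on both of its probes. Its brighter probe (chr3:142168364-142168423, GRCh37, minus strand) read 11.88, 11.91 and 11.96 in untreated HT29 and 11.49, 11.58 and 11.66 after OXA, a fall of 0.34 (SE 0.06, limma adjusted p = 0.00902). In HTOXAR3 the values went from 11.64, 11.65 and 11.66 to 11.18, 11.26 and 11.34, a fall of 0.39 (SE 0.06, limma adjusted p = 0.00545). The OXA and untreated arrays did not overlap in either line. With Curcumin added, the arrays read 11.37, 11.44 and 11.45 in HT29 and 10.92, 11.03 and 11.08 in HTOXAR3. Against untreated cells these were 1.41-fold and 1.56-fold lower (log2 difference -0.50 and -0.64, SE 0.06 for each, limma adjusted p = 0.000289 and 3.3e-05). The step that Curcumin added to OXA was not called, at -0.16 (interval -0.29 to -0.02) in HT29 and -0.25 (interval -0.38 to -0.11) in HTOXAR3 on this probe.

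The other ATR probe, 16.8 kb away at chr3:142185167-142185226, moved the same way in each of the 7 comparisons of 2 groups. It differed by -0.30 and -0.29 after OXA, with adjusted p of 0.069 and 0.0996 over all probes (limma), and was called lower after the combination in both lines (-0.48 and -0.64). The step added by Curcumin in HTOXAR3 was called on it (-0.34, limma adjusted p = 0.043), beside 7.87% of all probes called in either direction, and on the mean of both probes (-0.29, limma adjusted p = 0.0171). The second probe was also called lower in untreated HTOXAR3 (-0.33, limma adjusted p = 0.0412), where the brighter probe's -0.27 was not called (limma adjusted p = 0.0736). That baseline difference was called with a normexp offset of 50 (-0.27, limma adjusted p = 0.019) and on the processed signal (-0.29, limma adjusted p = 0.0271). The order of the 6 group means was the same on both probes at the ends, with untreated HT29 highest and HTOXAR3 given the combination lowest. The call after OXA in HT29 was lost without HT29 untreated replicate 3 or without HT29 OXA replicate 1, while the one in HTOXAR3 was kept whichever of its 6 arrays was left out.

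CHEK1, the main kinase downstream of ATR, was called once. Its probe (chr11:125525158-125525217, plus strand) read 11.90, 11.92 and 12.08 in untreated HT29 and 11.94, 11.99 and 12.05 in untreated HTOXAR3, which overlapped (difference 0.03, interval -0.11 to 0.16). OXA arrays read 12.00, 12.08 and 12.15 in HT29 and 12.07, 12.15 and 12.16 in HTOXAR3, and neither difference from untreated was called (0.11 and 0.14). With Curcumin added the arrays read 11.76, 11.76 and 11.80 in HT29 and 11.80, 11.81 and 11.85 in HTOXAR3, below every OXA array of the same line. The differences were nearly equal, at -0.30 and -0.31 (SE 0.06 for each), but the limma adjusted p was 0.0509 in HT29 and 0.0326 in HTOXAR3, so only the latter was called. With a normexp offset of 50 the HT29 step was called too (-0.30). The difference between these 2 steps was 0.00 with an interval from -0.19 to 0.19. The HTOXAR3 call was lost when any 1 of the 6 arrays was left out (-0.29 to -0.34).

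On the brightest probe of each gene, CHEK2, the kinase activated by ATM, showed the largest difference between untreated lines among the 10 genes. Untreated HT29 read 12.62, 12.63 and 12.65 and untreated HTOXAR3 12.10, 12.13 and 12.17, which is 1.41-fold lower (log2 difference -0.50, SE 0.05, limma adjusted p = 3.28e-05). All 6 CHEK2 probes were called lower, by 0.39 to 0.50, among them a probe 36.1 kb upstream of the printed pair (chr22:29121275-29121334), which read 0.43 lower. The background of this probe-by-probe test was 10.6% called in either direction. The call was kept whichever of the 6 arrays was left out.

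OXA alone gave small CHEK2 differences that were not called in either line. They were -0.09 in HT29 (arrays 12.50, 12.55 and 12.58) and -0.08 in HTOXAR3 (arrays 12.03, 12.07 and 12.07), with intervals that reached no lower than -0.19 and -0.18. HTOXAR3 given the combination read 11.76, 11.82 and 11.86, below all other arrays, and 0.32 lower than untreated (SE 0.05, limma adjusted p = 0.00127). That call was lost on both 75th percentile scalings, where the difference relative to the median of all names was -0.04 on the processed signal and -0.09 after normexp, against -0.31 with quantile normalization. In HT29 the combination read 12.41, 12.42 and 12.42, and its difference of -0.21 had a limma adjusted p of 0.0334 but lay under the fold minimum. On the 75th percentile scalings it was called in HT29 (-0.28 and -0.27), so the line in which CHEK2 passed after the combination changed with the scaling. Of the 6 probes, 3 were called in HTOXAR3 and 2 in HT29, beside 16.4% and 17.3% of all probes called in either direction. The probe 36.1 kb upstream was called in HT29 (-0.50) and not in HTOXAR3 (-0.33, limma adjusted p = 0.0835), the reverse of the brightest probe. The other CHEK2 probes differed by -0.17 to -0.50 in HT29 and -0.22 to -0.36 in HTOXAR3.

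The step that Curcumin added to OXA was read lower on all 6 CHEK2 probes in both lines. In HTOXAR3 the brightest probe's difference of -0.24 (SE 0.05, limma adjusted p = 0.0258) missed only the fold minimum, and it passed without combination replicate 1 (-0.27). Over all probes 4 of the other 5 were called, at -0.32 to -0.34, beside a background of 7.87%, and the mean of all 6 was called as well (-0.29, limma adjusted p = 0.00821). Those 4 lie close to the brightest probe, and the probe 36.1 kb upstream was not called (-0.19). In HT29 none was called, with differences from -0.13 to -0.29 and a background of 4.68%. The difference between the lines on the brightest probe, -0.12, was not called.

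WEE1 had the widest spread of group means among the 10 genes, 1.05 on the log2 scale. Its probe (chr11:9611073-9611132, plus strand) read 12.01, 12.05 and 12.21 in untreated HT29 and 11.37, 11.53 and 11.54 after OXA, a 1.53-fold fall (log2 difference -0.61, SE 0.08, limma adjusted p = 0.00044). Untreated HTOXAR3 read 11.68, 11.70 and 11.76 and OXA-treated HTOXAR3 11.07, 11.13 and 11.21, a 1.49-fold fall (-0.58, SE 0.08, limma adjusted p = 0.00141). The OXA arrays lay below every untreated array of their line, and both calls were kept whichever array was left out. In models of only the groups compared neither was called (limma adjusted p = 0.128 in HT29 and 0.0794 in HTOXAR3). The falls in the lines differed by 0.03, with an interval from -0.21 to 0.28.

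With Curcumin added, WEE1 read 11.60, 11.71 and 11.88 in HT29, above all 3 OXA arrays, and 11.04, 11.04 and 11.06 in HTOXAR3, below all 3. Neither step was called (0.25, interval 0.08 to 0.42, and -0.09, interval -0.26 to 0.08). The difference between the steps, -0.34 (interval -0.58 to -0.10), had an unadjusted p of 0.00925 and an adjusted p of 1 (limma). Against untreated cells WEE1 stayed 0.36 lower in HT29 (SE 0.08, limma adjusted p = 0.0296) and 0.67 lower in HTOXAR3 (SE 0.08, limma adjusted p = 0.00017). The HT29 call was lost without HT29 untreated replicate 2 or 3 or without combination replicate 1 or 2 (-0.30 to -0.44 over the 6 arrays left out). Untreated HTOXAR3 was 0.38 lower than untreated HT29 (SE 0.08, limma adjusted p = 0.034), a call that was lost when any 1 of the 6 arrays was left out.

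RAD9A, the clamp subunit whose tail binds TOPBP1, was the member that rose furthest. Untreated HT29 read 10.29, 10.43 and 10.45, OXA-treated HT29 10.70, 10.93 and 10.94, and HT29 given the combination 11.12, 11.16 and 11.27 (chr11:67165480-67165539, plus strand). The 3 groups did not overlap. The rise with OXA was 0.47 (SE 0.08, limma adjusted p = 0.00827) and the rise with the combination 0.79, or 1.73-fold (SE 0.08, limma adjusted p = 5.9e-05), while the step added by Curcumin, 0.33 (interval 0.14 to 0.51), was not called (limma adjusted p = 0.228). In HTOXAR3 the untreated arrays read 10.23, 10.24 and 10.41, the OXA arrays 10.38, 10.57 and 10.61, and the combination arrays 10.90, 10.95 and 10.98. Here untreated and OXA overlapped (0.23, interval 0.04 to 0.41, not called), the step added by Curcumin was 0.43 (SE 0.08, limma adjusted p = 0.0293), and the whole rise was 0.65, or 1.57-fold (SE 0.08, limma adjusted p = 0.000403).

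Both combination calls of RAD9A were kept whichever array was left out. The OXA rise in HT29 was 0.27, 0.48 and 0.65 within slides 1, 2 and 3 and was lost without HT29 untreated replicate 3, OXA replicate 2 or OXA replicate 3, and the Curcumin step in HTOXAR3 was lost when any 1 of 6 arrays was left out (0.36 to 0.47). The line differences in these steps were not called: -0.24 (interval -0.50 to 0.02) for OXA and 0.10 (interval -0.16 to 0.36) for adding Curcumin.

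RAD1, another subunit of the ring, was called higher with OXA on its brighter probe. That probe read 10.82, 10.88 and 10.90 in untreated HT29 and 11.18, 11.19 and 11.20 after OXA (0.32, SE 0.06, limma adjusted p = 0.0169), and 10.45, 10.56 and 10.58 in untreated HTOXAR3 and 10.83, 10.83 and 10.84 after OXA (0.30, SE 0.06, limma adjusted p = 0.0395). The OXA arrays lay above the untreated ones in both lines. The combination arrays read 10.93, 11.08 and 11.17 in HT29 and 10.76, 10.84 and 10.89 in HTOXAR3, of which only the latter was called higher than untreated (0.30, SE 0.06, limma adjusted p = 0.0254).

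The second RAD1 probe was not called after OXA. It read 9.57, 9.63 and 9.66 in untreated HT29 and 9.47, 9.51 and 9.56 after OXA, a difference of -0.10, beside 14.4% of all probes called in either direction. In HTOXAR3 it differed by 0.15 (limma unadjusted p = 0.0263), the same direction as the brighter probe, whose own 0.30 missed the threshold when adjusted over all probes (limma adjusted p = 0.0522, background 9.28%). It did rise when Curcumin was added in HTOXAR3, from 9.36, 9.46 and 9.48 to 9.74, 9.79 and 9.79 (0.34, limma adjusted p = 0.0149 over all probes), where the brighter probe differed by 0.00; the background there was 7.87%, and 4.68% in HT29, where it differed by 0.19 and was not called. Both probes were called 0.34 lower in untreated HTOXAR3 and both higher after the combination in HTOXAR3 (0.30 and 0.49). On the mean of both probes the OXA rise was called in neither line (0.11 in HT29 and 0.23 in HTOXAR3). The brighter probe's OXA call held only without HT29 untreated replicate 3 in HT29 and was lost without any 1 of 6 arrays in HTOXAR3 (0.26 to 0.33). Its combination call in HTOXAR3 held only without combination replicate 1 (0.26 to 0.34), and its basal call was lost without HT29 untreated replicate 1 or 3 or HTOXAR3 untreated replicate 1.

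**Figure D3:**
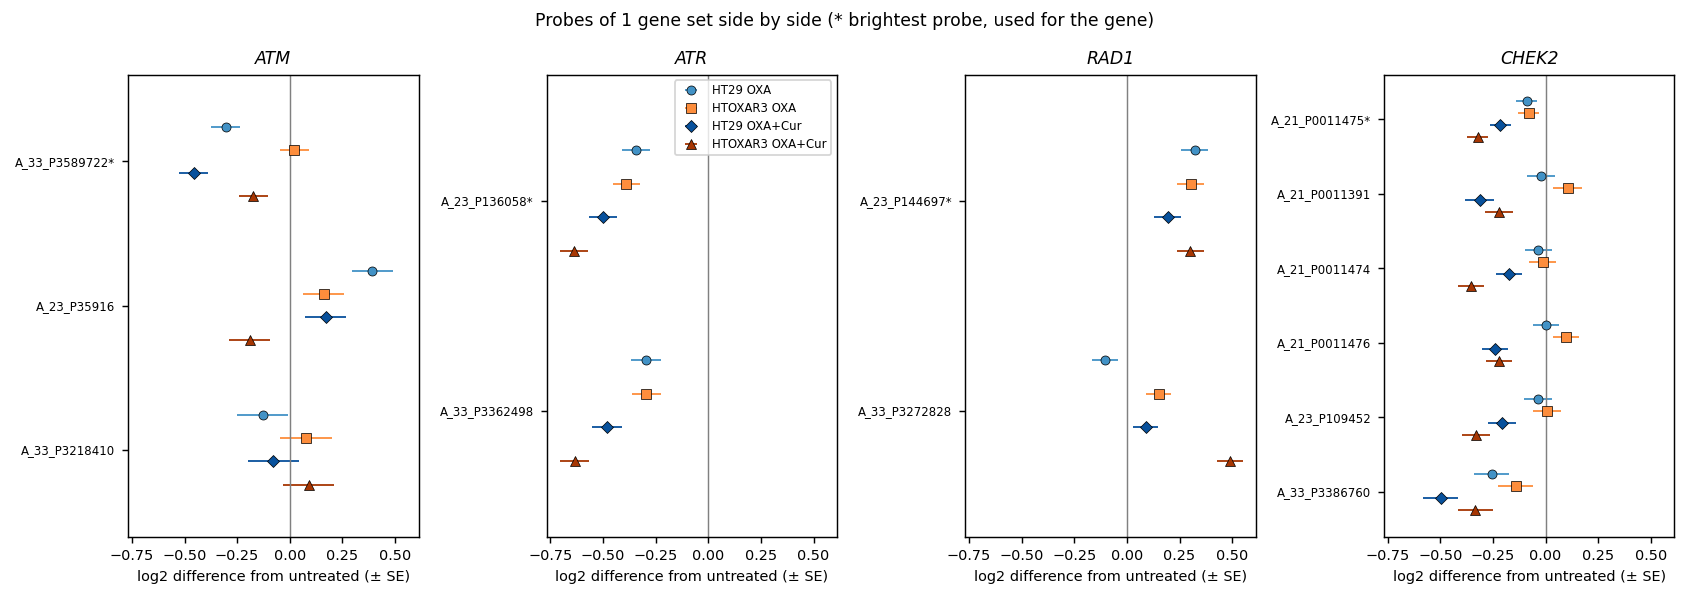
Log2 difference from untreated cells (± SE, limma) for each probe of ATM, ATR, RAD1 and CHEK2 after OXA and after OXA plus Curcumin in both lines; an asterisk marks the brightest probe. The ATR probes moved together, whereas ATM in HT29 after OXA read -0.30 on one probe and 0.39 on another.

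HUS1, which completes the ring, and RAD17, which loads it, were called in no comparison over all arrays. HUS1 (chr7:48004001-48004060, minus strand) had group means from 5.90 to 6.36, lowest in untreated HT29 and highest in HTOXAR3 given the combination. Its largest difference was 0.44 after the combination in HTOXAR3, where the arrays went from 5.67, 5.83 and 6.26 to 6.24, 6.37 and 6.47 and overlapped (interval 0.12 to 0.76, limma adjusted p = 0.439). Without HTOXAR3 untreated replicate 1 it was called (0.61, limma adjusted p = 0.044). RAD17, read by a probe whose match spans 10383 bases of chromosome 5 (chr5:68695972-68706354, plus strand), had group means from 6.61 to 7.21. After OXA in HTOXAR3 it went from 6.52, 6.91 and 6.97 to 7.13, 7.23 and 7.27, without overlap, a difference of 0.41 (interval 0.12 to 0.69, limma adjusted p = 0.489). These probes had residual SDs of 0.19 and 0.16, the widest of the 10 genes, and that of CHEK2 was 0.03.

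CLSPN, the adaptor between ATR and CHEK1, rose with OXA in HT29 and fell back when Curcumin was added. Its probe (chr1:36204117-36204176, minus strand) read 8.96, 9.03 and 9.03 in untreated HT29, 9.40, 9.53 and 9.71 with OXA, and 8.90, 9.02 and 9.17 with OXA plus Curcumin. The OXA arrays lay above all others of the line, while untreated and combination arrays overlapped. The rise was 1.46-fold (log2 difference 0.54, SE 0.10, limma adjusted p = 0.00631) and the fall 1.43-fold (-0.52, SE 0.10, limma adjusted p = 0.0242), leaving the combination 0.02 from untreated (interval -0.18 to 0.23). In HTOXAR3 the arrays read 9.14, 9.19 and 9.24 untreated, 9.32, 9.33 and 9.51 with OXA, and 8.99, 9.20 and 9.24 with both. The OXA arrays were again above the rest, but the differences of 0.20 and -0.24 were not called, with intervals from -0.01 to 0.40 and -0.45 to -0.04.

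The CLSPN rise in HT29 was kept whichever of 6 arrays was left out. Its fall was lost without HT29 OXA replicate 1 or 2 or without combination replicate 2 or 3 (-0.44 to -0.60 over the 6). The OXA responses of the lines differed by -0.35 (interval -0.64 to -0.06), with an unadjusted p of 0.0227 and an adjusted p of 1 (limma). CLSPN and CHEK1 shared the pattern of highest group means under OXA in each line and lowest, or near lowest, under the combination.

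The 18 S-phase markers are given beside this pattern because CLSPN and CHEK1 are known to be transcribed with the genes of that phase. Of these, 11 fell in HT29 and 8 in HTOXAR3 when Curcumin was added (medians -0.38 and -0.30), beside 2.38% and 4.41% of all names, among them the replicative helicase subunit MCM7 at -0.59 and -0.65 and, in HT29, the cyclin CCNE2 at -0.60. With OXA alone, 2 rose and 2 fell in HT29 and 1 fell in HTOXAR3 (medians 0.06 and 0.04), beside 8.34% higher and 7.62% lower in HT29 and 4.95% lower in HTOXAR3. MCM6 was lower by 0.78 and 0.86 and CDC6, a replication licensing factor, was higher by 0.40 in HT29. The part of the S-phase share in the CLSPN and CHEK1 results was not tested. In RNA from whole cultures, fewer cells of a phase and less RNA per cell cannot be told apart.

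The window upstream of CLSPN is shown because it was the only one of 8 checkpoint genes with a promoter in the RefSeq table (13 windows) that held an E2F-like motif. Windows ran from 250 bases before to 50 after a start site. They were searched on both strands for the E2F-like TTTCGCGC, TTTGGCGC and TTTCCCGC, the CRE TGACGTCA, the CCAAT box, and, of CHR-like form, TTTGAA. The 270 bases below run from 250 before to 20 after the start site on the minus strand (chr1:35769959-35770228, GRCh38.p14), with matches in capitals. CCAAT was read on the opposite strand 119, 94 and 46 bases before the start, and TTTCCCGC on the opposite strand from 5 bases before it. An E2F-like motif stood in 2.74% of 35116 windows, CCAAT in 34.6% and TTTGAA in 15.2%. Among the checkpoint genes CCAAT was found for 6 (ATM, CHEK1, CHEK2, CLSPN, RAD17 and RAD9A) and TTTGAA for 2 (ATM and RAD17). Genes were counted when any of their windows held the motif, whereas the percentages are per window. A gene with several windows has more chances of a match, so the 2 measures are unlike.
CLSPN: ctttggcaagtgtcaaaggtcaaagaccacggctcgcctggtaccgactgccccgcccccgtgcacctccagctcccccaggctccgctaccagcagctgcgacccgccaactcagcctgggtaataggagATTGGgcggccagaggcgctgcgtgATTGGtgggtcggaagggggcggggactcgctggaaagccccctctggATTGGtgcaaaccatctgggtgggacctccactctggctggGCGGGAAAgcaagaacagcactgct

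The responses of the lines were then compared directly. By limma none of the 10 genes differed between HTOXAR3 and HT29 in the response to OXA, to adding Curcumin or to the combination, after Benjamini-Yekutieli or Benjamini-Hochberg adjustment. At an unadjusted p under 0.05 there were 2, 1 and 2 genes. They were ATM (0.33) and CLSPN (-0.35) for OXA, WEE1 (-0.34) for Curcumin, and ATM (0.28) and WEE1 (-0.31) for the combination. These values are those of the brightest probes. The downstream ATM probe gave the opposite signs, -0.23 for OXA and -0.36 for the combination, and the second RAD1 probe differed by 0.25 and 0.40, where the brighter one gave -0.02 and 0.11. The second RAD1 probe's 0.40 had an unadjusted p of 0.000378 and an adjusted p of 0.256 over all probes (limma). Of 36203 names tested, 4940, 3524 and 5204 had an unadjusted limma p under 0.05 for OXA, for adding Curcumin and for the combination. The member counts at that threshold lie near these shares. Over all names 1.01%, 0.135% and 0.854% were called in either direction.

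Around these 10 genes, 46 known partners and targets were read, all of them on the array, MRE11 and H2AX under their older symbols. Among the cell cycle targets, 15 genes that the kinases act on or through, OXA raised 1 and lowered 6 in HT29 and raised 2 and lowered 5 in HTOXAR3. Of all names 8.34% rose and 7.62% fell in HT29, and 5.33% and 4.95% in HTOXAR3. PKMYT1, the membrane-bound relative of WEE1, rose by 0.62 in HT29 and 0.54 in HTOXAR3 while WEE1 fell. AURKA, the kinase that helps restart the cycle after arrest, fell by 1.08 and 0.87. CDKN1A, the CDK inhibitor p21, was called higher with OXA in HTOXAR3 (0.88, SE 0.14, limma adjusted p = 0.00344). It was not called with OXA in HT29, and its difference between the lines in OXA response was not called. Adding Curcumin raised 3 and lowered 4 of the 15 in HT29 (3.14% and 2.38% of all names) and raised 3 and lowered 1 in HTOXAR3 (4.43% and 4.41%). CDKN1A rose by 2.12 in HT29 and 1.60 in HTOXAR3, and GADD45A, a damage-induced growth arrest gene, by 0.96 and 0.69. Those that fell, named here after their values were seen, were the kinase CDK1 in both lines (-0.31 and -0.38) and, in HT29, CDK2, PKMYT1 and the phosphatase CDC25A (-0.33 to -0.38).

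The clamp loader's other subunits and the clamp paralogs numbered 6. RFC4 rose with OXA in both lines (0.48 and 0.42), as the only one called (8.34% and 5.33% of all names rose). Adding Curcumin lowered 3 in HT29 (2.38% of all names), with RFC3 at -0.48 and RFC5 at -0.46, and 2 in HTOXAR3 (4.41%), with RFC4 at -0.50, where the clamp paralog HUS1B rose by 0.79. In untreated HTOXAR3, RFC3 and RFC5 were higher than in HT29 by 0.46 and 0.34 (6.28% of all names were higher), while RAD1 was lower.

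Among 16 activators and adaptors of the kinases, 3 rose and 1 fell with OXA in HT29, and none rose and 1 fell in HTOXAR3 (8.34% and 7.62% of all names in HT29, 5.33% and 4.95% in HTOXAR3). A single call in 16 genes is of the same order as these shares. The fork protection factor TIMELESS rose by 0.32 in HT29, and the histone H2AX, which ATM and ATR mark, fell by 0.95 and 0.60. NBN, which brings ATM to breaks, fell when Curcumin was added (-0.54 in HT29, -0.56 in HTOXAR3), and in untreated HTOXAR3 the ubiquitin ligase RNF8 was 0.56 higher. Of 9 genes for kinase stability and shut-off, 2 fell with OXA in HT29 and 1 in HTOXAR3, where the deubiquitinase USP7 was lower by 0.85 and 0.80. Adding Curcumin lowered 1 of them, PRKDC, in HTOXAR3 (-0.60), beside 4.41% of all names.

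Over all 46 partners, 5 rose and 9 fell with OXA in HT29 (8.34% and 7.62% of all names), and 3 and 7 in HTOXAR3 (5.33% and 4.95%). Adding Curcumin raised 3 and lowered 10 in HT29 (3.14% and 2.38%), and raised 4 and lowered 6 in HTOXAR3 (4.43% and 4.41%). With the combination 6 rose and 14 fell in HT29 (9.57% and 9.01%), and 7 rose and 12 fell in HTOXAR3 (8.83% and 8.66%). At baseline 4 were higher and 1 lower in HTOXAR3 (6.28% and 5.28%). The partners were chosen with earlier results of these data known, and nothing particular to them is drawn from these counts.

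Most markers of mitosis fell with OXA in both lines, as WEE1 and ATR did. Of 14, 10 fell with OXA in each line (medians -0.44 and -0.41, beside 7.62% and 4.95% of all names), with the kinesins KIF20A at -1.29 and -1.02 and, in HT29, CENPE at -1.42. Adding Curcumin lowered none in HT29 and 7 in HTOXAR3 (2.38% and 4.41% of all names), and with the combination 14 fell in HT29 and 13 in HTOXAR3 (medians -0.68 and -0.73, beside 9.01% and 8.66%). In untreated HTOXAR3, 1 of 14 mitosis markers and 2 of 18 S-phase markers were higher and none was lower, beside 6.28% higher and 5.28% lower of all names. WEE1 did not follow the mitosis markers throughout. When Curcumin was added in HT29 it differed by 0.25 (not called) and their median by -0.17. In untreated HTOXAR3 WEE1 differed by -0.38 and their median by 0.10. Their part in the results of the kinases was not tested.

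**Figure D4:**
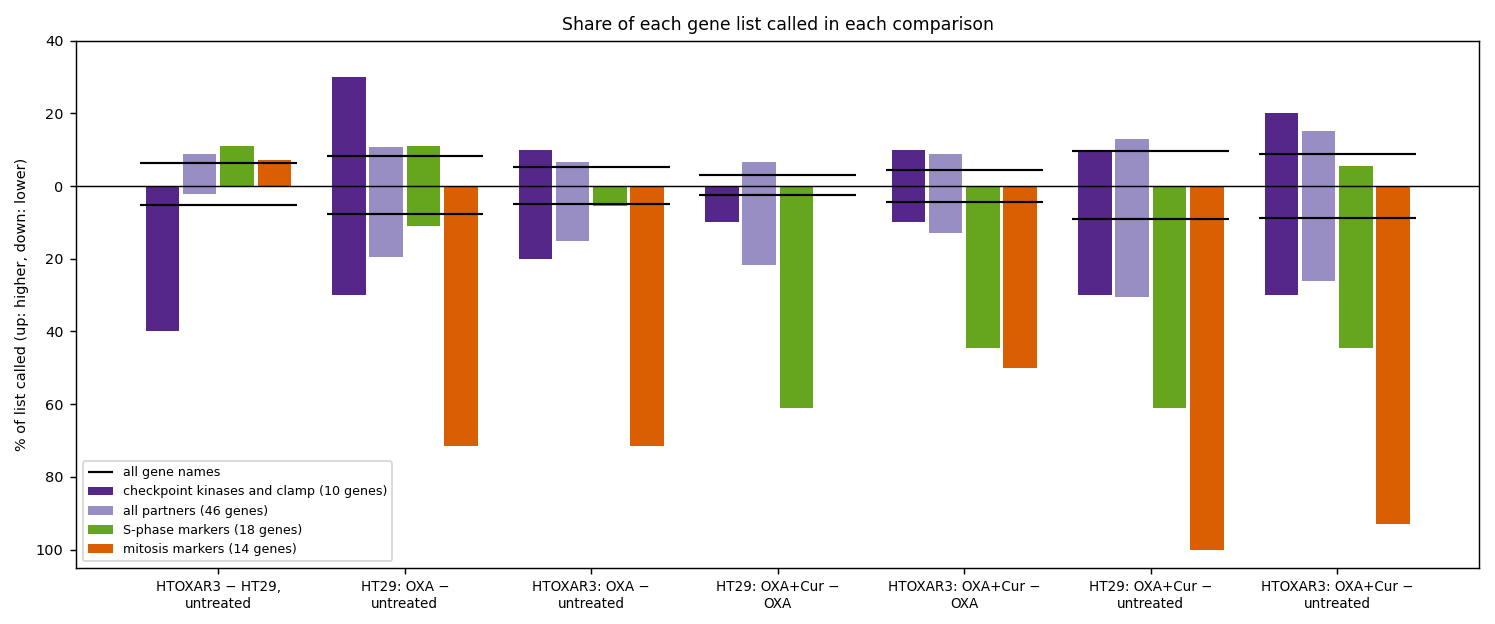
Percent of the 10 checkpoint genes, 46 partners, 18 S-phase markers and 14 mitosis markers called higher (upward) or lower (downward) in 7 comparisons; black lines give the percent of all gene names. After the combination 14 of 14 mitosis markers fell in HT29, against 3 of 10 checkpoint genes.

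The genes most like 4 of the members over the 18 arrays, among 17400 names well above background on all of them, are given as a description, since the arrays share 6 groups. For WEE1 they were TMEM2, CLRN3 and PCTP, with Pearson r of 0.974, 0.972 and 0.971. For CHEK1 they were a probe without a gene name, PAICS and TRAP1 (0.935, 0.925 and 0.910). For ATM, on its brighter probe, they were LINC01184, GMCL1 and TMEM18 (0.933, 0.924 and 0.916). For CLSPN they were a probe without a gene name, TSPAN33 and MGC4859 (0.879, 0.873 and 0.868).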

How the data were processed

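RNA of 18 samples was labelled with Cy3 and read with Agilent Feature Extraction 10.7.3.1 on arrays of 62976 spots; the probe positions in the file headers are on GRCh37. The deposited scanner files give spot intensity with local background, and the authors' methods name normexp background correction, quantile normalization and limma. The deposited log2 value table has numbered lines without gene names and was not used. The normexp offset is not given in the sources used here. In the re-analysis normexp (offset 0, with 50 as an alternative) was applied to mean signal and background median. Control spots were dropped and the other 58717 spots were quantile-normalized. Spots flagged as outliers were then set to missing. Replicate spots were averaged into 50599 probes and the probe with the highest mean kept for each of 36204 names. A single limma 3.58.1 model (R 4.3.3) with 6 group terms over all 18 arrays gave 10 comparisons; called genes had a Benjamini-Yekutieli adjusted p under 0.05 and a fold over 1.2. Of the spots that were not controls, 52.4% to 63.6% per array were well above background. The number of arrays limits the precision.

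Genes were named by role: all 10 members and each of their probes, the 3 largest called rises and falls among partners, at most 3 markers per list, and the 3 names most alike for CHEK1, CLSPN, WEE1 and ATM. Members and lists were chosen with earlier results of these data known. The scripts were tested on simulated data. The array barcodes put 2, 8 and 8 arrays on 3 slides. Slide 1 held only replicate 1 of untreated HT29 and of HT29 given OXA. Samples with the same replicate number deviated together in every pair for OXA in HT29 (correlations of 0.119 to 0.245) and adding Curcumin in HTOXAR3 (0.110 to 0.197). They did not in the other 5 comparisons of 2 groups. Only in the former 2 comparisons did all pairs of the same replicate number share a slide. Replicate number and slide therefore cannot be told apart there. The labels describe no pairing. Alternatives covered background correction, scaling, probe choice, a filter on dim probes, the multiple-testing method, the samples in the model, replicate and slide blocks, and each array left out. Fits of each probe on its own were added after the data had been seen.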

Additional observations from a re-analysis of the deposited data

Results flagged for a closer look

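None of the 10 checkpoint genes, but 2 of their 46 partners, had effects that differed between HT29 and HTOXAR3 by the test of the difference itself. GADD45A, a growth arrest gene, fell with OXA in HT29 (-0.83) and differed by -0.01 in HTOXAR3, a difference of 0.82 (SE 0.12, limma adjusted p = 0.0185). Before treatment GADD45A was already lower in HTOXAR3 than in HT29 (-0.47, SE 0.09, limma adjusted p = 0.012). TTI2, part of the complex that stabilises ATM and ATR, fell with the combination in HT29 (-0.53) and differed by 0.26 in HTOXAR3, a difference of 0.79 (SE 0.13, limma adjusted p = 0.0362). These tests called 1 of 46 partners for OXA, none for adding Curcumin and 1 for the combination, beside 1.01%, 0.135% and 0.854% of all names.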

How the results depend on the processing

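The 3 comparisons between lines called no member under any alternative. Models of only the groups compared, which use fewer arrays, called 0 members in the basal comparison, 0 for OXA in either line, 0 for adding Curcumin in either line, 1 for the combination in HT29 and 3 in HTOXAR3, while over all names they still called 1296, 1394, 626, 18, 260, 2132 and 3052 in that order. Adding Curcumin in HT29 called 2 members with an offset of 50 (2566 of 36203 names), with dim probes left out (2691 of 21867) and with the slide block (1675 of 36203). It called 3 with Benjamini-Hochberg (3706 of 36203). In HTOXAR3 the mean of all probes called 4 (ATR, CHEK1, CHEK2 and RAD9A), beside 2875 of 36204 names. The same mean also called ATR at baseline (-0.30) and CHEK2 with the combination in HT29 (-0.27), and lost ATM with OXA (-0.01) and with the combination (-0.12) in HT29 and RAD1 with OXA in both lines (0.11 and 0.23). Leaving out 1 array gave 1 to 3 calls in the basal comparison, 3 to 4 and 2 to 2 for OXA in HT29 and HTOXAR3, 0 to 1 for adding Curcumin in each line, and 3 to 4 and 4 to 5 for the combination. Among called results, directions reversed on other probes for ATM with OXA (0.39) and with the combination (0.17) and for RAD1 with OXA (-0.10), all in HT29. The replicate block ended 1 call, ATM with OXA in HT29 (-0.30, limma adjusted p = 0.0627), and no other. The slide block ended RAD1 in HTOXAR3 with OXA (0.29) and with the combination (0.28), and no called result reversed within a slide. Scaling to the 75th percentile moved the median of all names by up to -0.19 (OXA in HTOXAR3, processed signal), and every called member kept its direction relative to that median; CHEK2 with the combination in HTOXAR3 fell under the fold minimum on both such scalings (-0.23 and -0.26, which are -0.04 and -0.09 relative to the median, against -0.31), while it was called in HT29 on both (-0.28 and -0.27), and WEE1 at baseline was lost on the processed signal (-0.38, limma adjusted p = 0.0559). Causes were not tested.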
